A study of Macaca mulatta with 24 samples.

Results

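Testosterone added on a western-style diet was examined at 841143 CpGs by comparing T+WSD with WSD, 6 animals against 6, which made up 12 of the 24 female rhesus macaques of the series. The T+WSD females (animals 7 to 12) carried testosterone implants, given as a model of hyperandrogenemia, and ate a high-fat western-style diet. The WSD females (animals 19 to 24) ate the same diet and carried implants of cholesterol as the control. The other 12 animals ate chow, with cholesterol implants in the C group (1 to 6) and testosterone implants in the T group (13 to 18), and served here to show the level of a CpG without the diet, to sort CpGs by level and, in the limma fit of all 24 animals, to estimate the spread. The labels give an age of 4 years for all animals and the methods of the study an older age at biopsy, and omental (visceral) white adipose tissue was sampled by biopsy in year 3 of treatment. By the methods of the study, the animals were picked to represent the fat mass and insulin findings of their group, so they are not a random draw from it. T+WSD and C hold the animal numbers 1 to 12 and T and WSD the numbers 13 to 24. What this numbering stands for is not given in the sources used here, and in T+WSD against WSD it cannot be told apart from the implant.

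In mammals, DNA methylation is placed on cytosines that are followed by guanine (CpGs). Most CpGs of a genome are highly methylated, whereas the dense CpGs of active promoters are mostly free of methylation, and levels between these extremes are common at distal regulatory sequence and where the cells of a tissue differ. Omental fat lies within the abdomen and holds adipocytes together with vascular, immune, stromal and mesothelial cells. Androgens act in these cells through the androgen receptor, a nuclear receptor that binds DNA. In whole tissue, a change in the mix of cells and a change within cells of a type cannot be told apart.

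The assay was reduced-representation bisulfite sequencing (RRBS), in which CpG-rich fragments cut by MspI are read, and a value is the percentage of reads with a methylated cytosine at a CpG of an animal. Between 780541 and 825237 CpGs had a value in a T+WSD animal, and between 791221 and 816251 in a WSD animal. The number of reads behind a value is not in the table, so the depth of a single value beyond the authors' minimum is unknown. The study gives summary statistics of the RRBS data in its supplement. T+WSD 9 stood apart at the mitochondrial genome, where it had a value at only 38 of 113 CpGs, with a mean methylation of 28.0%. Over the same 38 CpGs the other T+WSD animals lay between 1.02% and 3.59%, and the WSD animals, with 30 to 38 of them, between 1.58% and 3.23%. Results are therefore also given without T+WSD 9. Among the chow animals, C 3 (16.8% over 31 of the 38) and C 5 (6.50% over 26) were also high, and the other 10 lay between 0.973% and 3.45%. The part of these differences in the results was not tested.

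Mean methylation did not differ beyond the spread between animals. Over the 581843 CpGs of the autosomes and X with a value in all 12 animals, T+WSD had a mean of 46.5% ± 0.513 (SD, n = 6) and WSD 46.8% ± 0.672 (SD, n = 6). The T+WSD animals ran from 45.9% through a median of 46.4% to 47.3%, and the WSD animals from 45.6% through 47.1% to 47.5%, so that the groups overlapped throughout. The difference of -0.368 points had a two-sided exact permutation p of 0.301, and without T+WSD 9 it was -0.248 points with an exact permutation p of 0.498. Without WSD 22 it was -0.612 points with an exact permutation p of 0.0519, and without WSD 20 -0.244 points with an exact permutation p of 0.502. When each animal was averaged over every CpG it had, the sign turned and the difference was 0.055 points. With 6 animals against 6, the smallest p that this test can give is 0.00216.

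The difference was also small at each methylation level. CpGs were put into 6 classes by their mean level in the C and T animals, which the comparison does not use. In the class from 50% to 80%, T+WSD had a mean of 66.1% ± 1.01 (SD, n = 6) and WSD 67.3% ± 1.70 (SD, n = 6). In the class from 80% to 95% the means were 88.2% ± 0.465 and 89.0% ± 0.685 (SD, n = 6 each), with an exact permutation p of 0.0563 and 0.338 after Benjamini-Hochberg adjustment over the 6 classes. None of the 6 classes passed the adjusted threshold. WSD 22 had the lowest mean of its group in 5 of the 6 classes, and without it the differences of -1.90 and -0.997 points in these 2 classes both had an adjusted exact permutation p of 0.0260. In the class from 5% to 20%, T+WSD was 0.268 points higher, with an adjusted exact permutation p of 0.865 and T+WSD 8 at 13.7% and T+WSD 12 at 12.7% above the other 4 animals of their group. That difference was -0.156 points without T+WSD 8 and -0.0502 points without WSD 22.

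**Figure D1:**
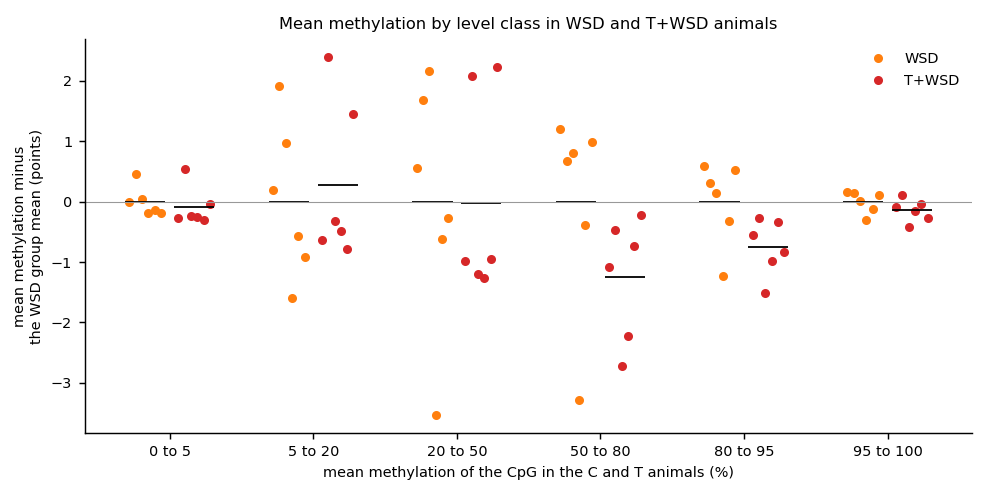
Mean methylation of each WSD and T+WSD animal in 6 classes of CpGs, as the difference in percentage points from the WSD group mean of the class (y axis), by the class of mean methylation in the C and T animals in percent (x axis). Points are animals and black lines group means. WSD 22 is the lowest WSD point at 50 to 80, and all 6 T+WSD points of that class lie below the WSD mean.

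Whole profiles parted the groups weakly. A pseudo-F statistic, the ratio of distances between groups to distances within them, was 1.11 over 596955 CpGs with a value in all 12 animals, with an exact permutation p of 0.00649 over all splits of 6 against 6. Without T+WSD 9 it was 1.07 with an exact permutation p of 0.0563, without T+WSD 12 it was 1.08 with an exact permutation p of 0.0519, and over the 10000 most variable CpGs it was 1.15 with an exact permutation p of 0.0714, so that each of these missed the threshold.

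At single CpGs, 46 differentially methylated CpGs (DMCs) were called, 0.00547% of those tested. A DMC had an adjusted p under 0.05 in limma, with Benjamini-Hochberg adjustment over all CpGs, and group means that differed by over 10 percentage points. Of the 46, 37 were higher (0.0044% of CpGs) and 9 lower (0.00107%) in T+WSD. The lower count moved with single animals. There were 34 higher and 20 lower without WSD 22, 40 and 17 without WSD 23, and 30 and 4 without WSD 20. By an unadjusted p under 0.05, 51914 CpGs passed (6.17%). In 45 of the 46 the T+WSD and WSD animals did not overlap (0.38% of all CpGs), a layout that the choice of the DMCs favours. Of the 46, 13 had a WSD or T+WSD mean under 5% or over 95%. One of these was chr19:19777143, at 100% in all 6 WSD animals and a mean of 87.3% in 4 T+WSD animals. Without T+WSD 9 there were 40 DMCs, 34 of which were among the 46. When the fit held only the 12 animals on the western-style diet, 56 were called, 37 higher and 19 lower. Of these, 25 were shared, which is 25 of the 46 and 25 of the 56.

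The 3 largest gains outside the regions described below went from a WSD median of at most 23.6% to a T+WSD median well over 50%. The CpG at chr4:45310582 (rheMac8) ran from 0% through a median of 0% to 7.14% in 4 WSD animals with a value, and from 53.3% through 68.1% to 77.5% in T+WSD. Its mean difference was 64.4 points (limma, adjusted p = 2.09e-05). The C animals lay between 65.9% and 84.8% here, like T+WSD, and the T animals between 0% and 5%, like WSD. At chr11:130760594, WSD ran from 0% through 3.13% to 20% and T+WSD from 65.4% through 67.9% to 77.6%, with C from 63.8% to 80.5% and T again from 0% to 20%. The mean difference at this CpG was 63.1 points (limma, adjusted p = 0.000186). At chr8:51154958, WSD ran from 11.1% through 23.6% to 27.3% and T+WSD from 70.3% through 78.6% to 84.3%, a mean difference of 57.8 points (limma, adjusted p = 0.000211). C spanned 75.1% to 98.2% there and T 12.1% to 36.4%. At all 3 CpGs the animals numbered 1 to 12 and those numbered 13 to 24 thus formed 2 sets that did not overlap.

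Among the 3 largest losses outside those regions, the CpG at chrX:67570373 ran from 59.2% through 73.4% to 80.9% in WSD and from 16.7% through 31.9% to 55.6% in T+WSD, a difference of -39.1 points (limma, adjusted p = 0.0205). C (mean 33.2%) was near T+WSD and T (mean 74.3%) near WSD. Its 7 neighbours within 100 bp, none of them a DMC, had a median difference of -25.0 points. The CpG at chr8:140542434 ran from 47.1% through 51.3% to 55.6% in WSD and from 15.4% through 17.7% to 29.6% in 5 T+WSD animals, a difference of -30.5 points (limma, adjusted p = 0.0234). Here C (mean 51.8%) and T (mean 41.4%) overlapped, C was close to WSD, and the lowest T animal, at 28.6%, was within the T+WSD range. The remaining loss lay on an unplaced scaffold, with 65.8% ± 2.82 in WSD and 43.1% ± 4.44 in T+WSD (SD, n = 6 each; limma, adjusted p = 7.21e-05), a C mean of 45.8% and a T mean of 61.2%.

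The levels of C and T at the DMCs mostly ran with the animal numbers. T minus C had the opposite sign to T+WSD minus WSD at 43 of the 46 DMCs, the same sign at 2 and was 0 at 1, and 44.7% of all CpGs had the opposite sign, with a difference of 0 not counted as opposite. At 34 of the 46, no C animal overlapped any T animal and the difference had that opposite direction, which held for 0.179% of CpGs. C and T parted in the direction of T+WSD minus WSD at 0 of the 46 and at 0.178% of CpGs. At 32 of the 46, all 12 animals numbered 1 to 12 lay on 1 side of all 12 numbered 13 to 24 (0.00737% of CpGs). The 12 animals with testosterone implants parted from the 12 without at 0 of the 46, and at 0.000357% of CpGs, so that a count of 0 is near this background. Over the 37 DMCs that were higher in T+WSD, the median of an animal lay between 51.4% and 68.2% in T+WSD and between 50.7% and 58.6% in C. The same median lay between 9.45% and 18.6% in WSD and between 12.1% and 18.01% in T. Over the 9 lower DMCs the medians were 29.4% to 50.1% in T+WSD and 71.4% to 76.2% in WSD, and 49.1% to 64.0% in C and 65.3% to 74.0% in T. The median difference of the 9 single CpGs was smaller, at -13.4 points, with a range of -42.8 to -11.4. At these 9 the group medians of C and T lay between those of T+WSD and WSD, though C overlapped T+WSD and T overlapped WSD. At the 37 higher DMCs the group median of T (13.3%) was below that of WSD (15.5%). In the fit of the 12 animals alone, T minus C was opposite at 40 of the 56 DMCs, and C and T did not overlap at 22.

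**Figure D2:**
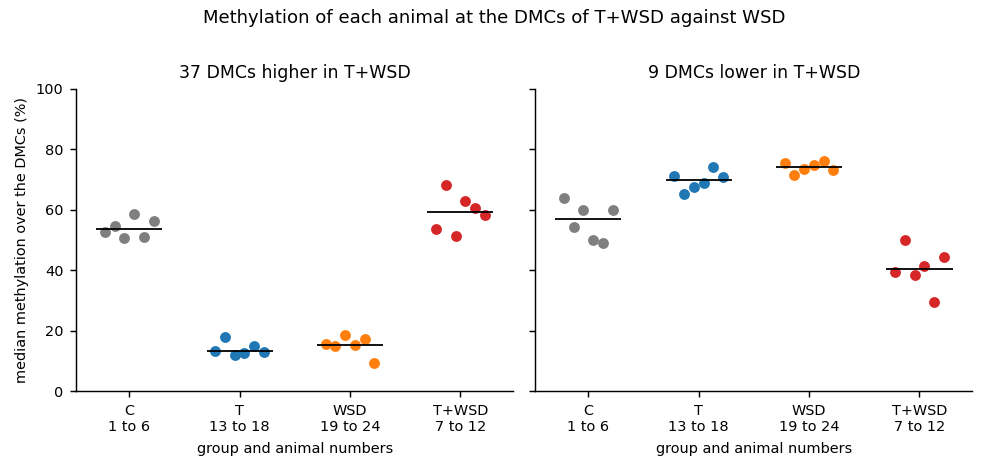
Median methylation of each animal in percent (y axis) over the 37 DMCs that were higher and the 9 that were lower in T+WSD, by group with the animal numbers (x axis). Points are animals and lines group medians. The contrast of T+WSD with WSD chose the CpGs, and C and T entered that choice only through the spread. At the higher DMCs C lies beside T+WSD and T beside WSD.

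A limma interaction term set T+WSD minus WSD against T minus C. With these groups it is the same contrast as animals 1 to 12 against 13 to 24, so that a testosterone effect that differs between the diets cannot be told apart from the numbering. It called 146 CpGs (0.0174% of those tested), among them 41 of the 46 DMCs. It contains the T+WSD and WSD values that chose the DMCs, so this overlap is partly built in. The other 5 DMCs included chr8:140542434 (limma, interaction adjusted p = 0.733) and chrX:197848, which was at 0% in all 6 WSD animals and ran from 8.33% to 20% in 4 T+WSD animals with a value, with C at 0% and T between 0% and 10% (limma, interaction adjusted p = 0.503).

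The CpGs beside a DMC were compared inside and outside the differentially methylated regions described below. For the 11 DMCs inside such regions, the median difference was 42.8 points in size, and the median of all other CpGs within 100 bp was 42.9 points in the direction of the DMC. Of these 11, 6 lie in the largest gain, at chr19:45316411, and are neighbours of each other, and the neighbour medians of the other 5 ran from 13.95 to 37.3 points. For the 35 DMCs outside such regions the medians were 30.2 and 3.85 points, and the neighbours had the sign of the DMC at 30 of the 35. The neighbour medians of these 35 ran from -3.43 to 25.0 points and so overlapped those inside regions. Regions are built from neighbouring CpGs that differ, so this contrast is in part built in. At chr4:45310582 the 4 neighbours differed by a median of 1.21 points. The genotype of an animal at a CpG can set its methylation near 0%, 50% or 100%. Values of that kind, within 15 points of these levels in at least 90% of animals with a range of at least 40 points, were found at 1 of the 46 DMCs and at 2.09% of all CpGs. Of the 46 DMCs, 5 were on the X chromosome, which held 3.21% of all CpGs, and 6 on unplaced scaffolds, which held 2.81%. Some of the scaffold DMCs were close neighbours, at positions 1056 and 1067 of a scaffold and 418 and 423 of another, so they are not separate loci.

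Runs of neighbouring CpGs were joined into differentially methylated regions (DMRs), each with a p combined over its CpGs (Sidak-corrected, under 0.1) and a mean difference over 10 points. The 86 DMRs held 732 CpGs (0.087% of those tested), 304 in 42 gains (0.0361%) and 428 in 44 losses (0.0509%). Their median length was 171 bp, with a range of 19 to 640 bp, and they held a median of 8 CpGs. Gains started from low levels: the median WSD mean of the 42 gains was 25.0% and the median T+WSD mean 46.2%, and in 37 of them WSD was under 50%. Losses ran from a median of 56.7% in WSD to 37.1% in T+WSD. The median difference was 18.3 points in the gains and -16.6 points in the losses. In 77 of the 86 every CpG had the direction of its region. The last DMR inside the 10-point threshold had a mean difference over its CpGs of 10.3 points in size, and the next region outside it 9.70.

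The number of DMRs rested on single animals and on the correction. It fell to 50 without T+WSD 9 (26 gains, 24 losses), 54 without WSD 24, 55 without T+WSD 8 and 56 without WSD 19. Without WSD 22 there were 24 gains and 65 losses, and without T+WSD 8 there were 18 gains and 37 losses. The balance went the other way without WSD 21 (56 gains, 38 losses) and without T+WSD 7 (42 gains, 31 losses). When the Sidak correction counted CpGs in place of bases, 32 DMRs remained (14 gains, 18 losses). DMRs lay on 21 chromosomes and 1 unplaced scaffold. Chromosome 19, with 7.37% of the CpGs, held 10 of them and 7 of the 46 DMCs, 6 of which lie in the same region at chr19:45316411. In the outer 2 Mb of chromosomes lay 15 of the 86, against 13.3% of all CpGs.

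In 27 of the 84 DMRs with at least 3 CpGs, the T+WSD and WSD animals did not overlap, 12 of them gains and 15 losses. Of all 1 kb tiles, 0.523% had groups that did not overlap, 0.191% with T+WSD higher and 0.332% with T+WSD lower. Since the same values chose the DMRs, these counts describe the regions and test nothing. The 8 largest gains and 8 largest losses of the 27 are described next.

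The largest gain was the 71-bp region of 7 CpGs at chr19:45316411-45316481. WSD animals ran from 6.49% through a median of 13.04% to 17.7%, and T+WSD animals from 45.5% through 53.6% to 67.6%. The means were 13.1% ± 4.07 and 54.3% ± 7.44 (SD, n = 6 each), a difference of 41.2 points with a region p of 3.07e-25. All 6 T+WSD animals lay above all 18 other animals. C had a mean of 29.3% (22% to 39.1%) and T of 11.4% (8.16% to 17.5%). Every C animal was thus above every T animal, so that T minus C had the opposite direction to T+WSD minus WSD. At 6 of the 7 CpGs the difference passed the threshold for a DMC. The CpG 60 bp from the first of the region showed the widest gap, with 6.77% in WSD and 62.0% in T+WSD. The first CpG was nearly unmethylated, at 2.37% in WSD and 11.99% in T+WSD, and did not pass. The region was called under all 12 other settings tried and without any 1 of the 12 animals, with a difference between 38.5 and 43.0 points when an animal was left out.

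**Figure D3:**
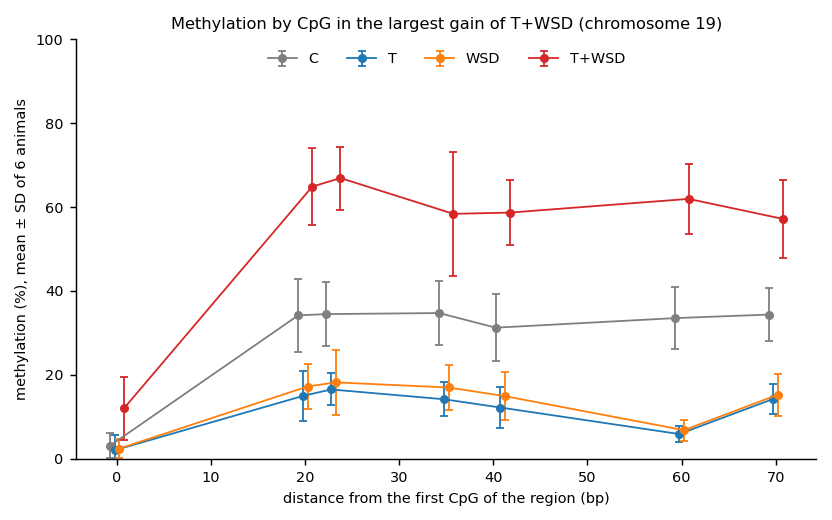
Methylation in percent (y axis, mean ± SD of 6 animals per group) at the 7 CpGs of the largest gain, by distance in bp from the first CpG (x axis). At the last 6 CpGs T+WSD lies between 57.2% and 66.9%, C between 31.2% and 34.7%, and WSD and T at or below 18.2%.

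Means of 1 kb tiles with at least 3 CpGs were fitted with limma, and 3 of 100864 tiles were called (0.00297%), all higher in T+WSD, against 6695 (6.64%) at an unadjusted p under 0.05. The tile with the chr19 region holds the same 7 CpGs, so that it repeats the same values, and had an adjusted p of 1.33e-06 in limma. The tile chr3:34361001-34362000 holds the same 4 CpGs as a further gain described below (limma, adjusted p = 0.00781). The tile chr8:51154001-51155000, with 3 CpGs and no DMR, includes the DMC at chr8:51154958. WSD ran from 41.7% through 51.5% to 63.8% in it and T+WSD from 74.2% through 79.9% to 87.5% (limma, adjusted p = 0.00477), C was at 87.6% ± 4.70 and T at 54.2% ± 8.18 (SD, n = 6 each). In all 3 tiles every C animal was above every T animal. No tile was called lower, and 3 were also called without T+WSD 9. In the fit of the 12 animals alone, and with at least 5 CpGs per tile, 1 tile was called. Without T+WSD 7 there were 5, of which 1 was lower.

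In 4 of the other 7 gains the C mean was nearer to T+WSD and the T mean nearer to WSD, and 3 of these lay on placed chromosomes. At chr17:29478350-29478648 (11 CpGs) WSD ran from 4.41% through 26.5% to 32.8% and T+WSD from 46.6% through 55.4% to 61.9%, a difference of 31.2 points between the means of the animals, or 25.2 as a mean over CpGs, and a region p of 0.000305. C (48.6% to 83.0%) and T (0% to 44.5%) did not overlap. The 2 CpGs at its start were under 6% in every group mean, and the difference was carried by the 9 CpGs from 224 to 298 bp further on. WSD 19, at 4.41%, and T 16, at 0%, had values at those 2 CpGs only. At chr3:34361417-34361443 (4 CpGs) WSD ran from 4.89% through 11.1% to 14.9% and T+WSD from 25.4% through 30.4% to 39.4%, a difference of 20.8 points with a region p of 0.000137, and C (26.9% to 37.6%) lay above T (4.98% to 19.9%). The CpG of this region at chr3:34361433 was the DMC with values of the genotype kind, and without such CpGs the region was not called. At chr18:70159214-70159259 (5 CpGs) WSD ran from 25.0% through 34.1% to 40.1% and T+WSD from 42.0% through 54.5% to 60.2%, with a region p of 0.0307, a C mean of 50.5% and a T mean of 31.1%, and here C and T overlapped. It was called in 5 of the 12 fits that each left out 1 animal.

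In the remaining 3 gains on placed chromosomes, C and T differed by under 10 points and overlapped. At chr7:165309260-165309328 (5 CpGs) WSD ran from 21.9% through 48.8% to 56.7% and T+WSD from 63.3% through 65.9% to 84.3%. The means were 44.6% ± 12.6 and 68.7% ± 8.06 (SD, n = 6 each), and C (44.7%) and T (49.5%) were both close to WSD. At chr8:71708091-71708264 (5 CpGs) WSD ran from 1.11% through 9.76% to 31.0% and T+WSD from 34.3% through 36.8% to 43.8%, with C at 26.1% and T at 26.3% in between. WSD was split there, with 2 animals near 30% and the other 4 at or below about 10%. At chr14:1313848-1313918 (6 CpGs) 4 WSD animals with a value lay between 10.9% and 18.5%, and T+WSD ran from 28.5% through 37.8% to 46.9%, with C at 21.6% and T at 28.1%. The 4th gain with C nearer to T+WSD was on an unplaced scaffold (positions 501 to 553, 4 CpGs), with 39.1% ± 4.80 in WSD (SD, n = 6) and 71.6% ± 19.7 in T+WSD (SD, n = 5). C had a mean of 58.9% (49.3% to 64.6%) and T of 52.6% (26.6% to 86.8%). Its region p was 0.0714, the lowest T+WSD animal, at 45.5%, was only just above the highest WSD animal, at 43.4%, and it was called in 3 of the 12 fits that each left out 1 animal. It was not called in the fit of the 12 animals alone. The other 3 gains of this paragraph, on chromosomes 7, 8 and 14, had region p-values of 0.0303, 0.0522 and 0.0359 and were called in 6, 2 and 5 of those 12 fits. The gain on chromosome 14 was not called on untransformed rates.

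**Figure D4:**
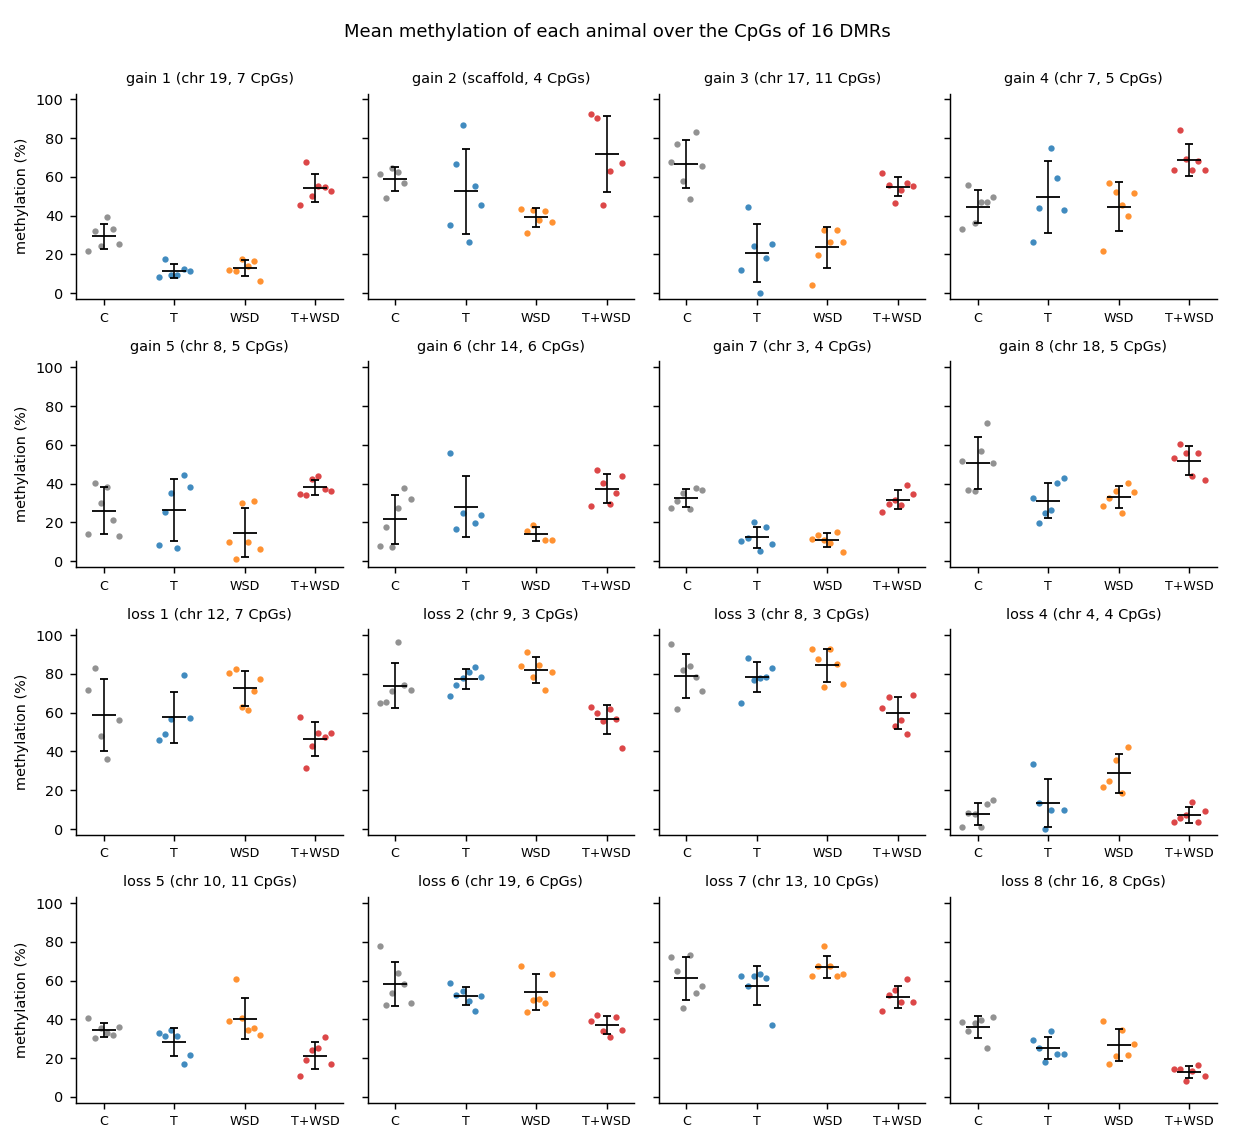
Mean methylation of each animal in percent (y axes) over the CpGs of the 8 largest gains and 8 largest losses among DMRs with at least 3 CpGs whose WSD and T+WSD animals did not overlap, by group (x axes) and ordered by the difference. Points are animals in number order, black bars mean ± SD. In gains 1, 3 and 7 no C animal overlaps a T animal; in the other 13 panels C and T overlap.

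The largest of the 8 losses was at chr12:115593362-115593436 (7 CpGs). WSD ran from 61.3% through 74.3% to 82.4% and T+WSD from 31.7% through 48.5% to 57.8%. The means were 72.7% ± 9.01 and 46.5% ± 8.75 (SD, n = 6 each), a difference of -26.1 points with a region p of 0.00101. All 7 CpGs were lower, by 21.6 to 33.1 points. C (59.0% ± 18.6, SD, n = 5) and T (57.7% ± 13.3, SD, n = 5) lay between the groups of the comparison and overlapped each of them. The region was called under all 12 other settings and without any 1 of the 12 animals.

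At chr9:109877799-109877955 (3 CpGs), T+WSD ran from 41.8% through 58.4% to 62.8% and WSD from 71.5% through 82.6% to 91.6%. The difference was -25.3 points with a region p of 0.00921 and as a mean over the region T+WSD was below all 18 other animals. The loss sat at 2 of the 3 CpGs. These are 7 bp apart, at chr9:109877948 (79.1% in WSD and 44.9% in T+WSD) and chr9:109877955 (76.3% and 33.4%), the latter a DMC (limma, adjusted p = 0.00679). The CpG 149 bp before them was at 90.1% in WSD and 91.2% in T+WSD. That CpG alone had a value in all 24 animals, and it was the only one with a value in C 4. At chr9:109877948, C (mean 52.4%, 40% to 66.7%, 5 animals) overlapped T+WSD (25% to 57.7%) and lay nearer to it than to WSD, and T had a mean of 68.9%. At chr9:109877955, C (61.5%) and T (73.9%) both lay above every T+WSD animal, the highest of which was at 41.4%. The region was called without any 1 of the 12 animals, but not in the fit of those 12 alone.

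By region means, T+WSD was also below all 18 other animals at 2 further losses of the 8. At chr19:10548602-10548668 (6 CpGs) T+WSD ran from 30.9% through 36.6% to 42.5% and WSD from 43.8% through 50.4% to 67.5%, with 58.3% in C and 52.0% in T and a region p of 0.000504. Its 6 CpGs were lower by 14.7 to 18.9 points, none of them a DMC, and the region was called without any 1 of the 12 animals. At chr16:42631621-42631695 (8 CpGs) T+WSD ran from 8.03% through 13.9% to 16.6% and WSD from 17.2% through 24.6% to 39.2%, with 36.1% in C and 25.2% in T and a region p of 0.0385. Here T was lower than C by 10.9 points, the direction that T+WSD had against WSD, though C and T overlapped. This loss was called in 6 of the 12 fits that each left out 1 animal and under 7 of the 12 other settings. It was called neither on untransformed rates nor in the fit of the 12 animals alone. T+WSD was outside all 18 other animals in 6 of the 86 DMRs, and WSD in 0. Of all tiles, 0.0208% had T+WSD outside the 18 others and 0.00991% WSD, and a region chosen for a gap between these groups is more likely to be of either kind. Besides the 4 such regions named so far, these were gains at chr19:40448563-40448703 (29.1% in WSD, 46.7% in T+WSD) and chr16:38861788-38861976 (14.6% and 28.9%). Both gaps were narrow. At chr19:40448563 T+WSD 7 was at 38.4% and T 16 at 37.5%, and the region p was 0.0723 (0.879 by the Sidak correction by CpGs). At chr16:38861788 T+WSD 7 was at 24.5% and WSD 20 at 23.4%.

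The loss at chr8:40490543-40490609 (3 CpGs) ran from 73.2% through 86.5% to 92.8% in WSD and from 49.0% through 59.3% to 69.3% in T+WSD, with C (78.9%) and T (78.3%) near WSD and a region p of 0.0122. At chr4:56291593-56291620 (4 CpGs) WSD had the highest group mean. The 5 WSD animals with a value ran from 18.8% through 25.0% to 42.1%, against 3.57% through 6.45% to 14.1% in T+WSD, 7.75% ± 5.79 in C (SD, n = 6) and 13.4% ± 12.3 in T (SD, n = 5). T 13 was at 33.4%, within the WSD range. Its region p was 0.068, and it was called in 3 of the 12 fits that each left out 1 animal. At chr10:18293777-18293986 (11 CpGs, all lower) WSD ran from 31.9% through 37.2% to 61.1% and T+WSD from 10.9% through 21.6% to 30.8%, with 34.7% in C, 28.2% in T and a region p of 0.000114. WSD 20 was the animal at 61.1%, and without it the difference was -15.1 points. The region was called in 5 of the 12 fits that each left out 1 animal, and neither on untransformed rates nor in the fit of the 12 animals alone. At chr13:92842898-92843066 (10 CpGs, all lower) WSD ran from 62.5% through 65.5% to 77.7% and T+WSD from 44.1% through 50.6% to 60.7%, with 61.1% in C, 57.4% in T and a region p of 0.0528. It was called in 4 of the 12 fits that each left out 1 animal. Of the 12 other settings 6 called it, and untransformed rates did not.

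Under the stricter Sidak correction by CpGs, 6 of these 16 regions remained, 3 gains (chr19:45316411, chr17:29478350 and chr3:34361417) and 3 losses (chr12:115593362, chr10:18293777 and chr19:10548602). Without T+WSD 9, 6 of the 16 were called and 10 were not. Over the 12 fits that each left out 1 animal, 5 of the 16 were called every time and 9 in 6 or fewer.

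Several long DMRs had groups that overlapped by few animals and passed the stricter correction too. These were chosen after their values were seen. At chr8:142738687-142738940, 18 CpGs had means of 19.8% ± 10.98 in WSD and 43.7% ± 8.58 in T+WSD (SD, n = 6 each), with 25.5% in C and 19.6% in T. At chr16:8011178-8011628, 23 CpGs had means of 29.1% ± 3.03 and 16.6% ± 6.93 (SD, n = 6 each), with 27.4% in C and 20.3% in T. At chr18:745264-745762, 15 CpGs had means of 37.8% ± 8.32 and 19.7% ± 5.63 (SD, n = 6 each), with C (37.4%) and T (35.7%) at the level of WSD. The widest loss of all 86 DMRs lay in a shorter region, at chr14:111853061-111853130 (6 CpGs). It was -37.1 points, from 56.5% in WSD to 19.5% in 5 T+WSD animals with a value. The groups overlapped there because T+WSD 8 was at 36.3% and WSD 23 at 35.6%. C was at 16.3% and T at 39.0%.

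Over all 86 DMRs, the C and T animals showed another picture than at the DMCs. T minus C had the sign of T+WSD minus WSD in 54 of the 86 and the opposite sign in 32, and 52.3% of all tiles had the same sign. Gains were divided 21 and 21, and losses 33 same and 11 opposite. The shares of tiles were not computed by direction. Over all CpGs of the class from 50% to 80%, T (66.6%) was also below C (68.4%), so a lower T was not particular to the losses. T and C differed by under 10 points in 75 of the 86 (87.2%), against 96.8% of tiles. C and T did not overlap in 5 (0.53% of tiles, 0.269% in the opposite direction and 0.262% in the same), each time in the opposite direction and each time in a gain: the 3 named gains and those at chr4:37257201-37257373 (5 CpGs) and chr11:50903668-50903686 (2 CpGs). In 4 of these 5 the animals 1 to 12 lay above all of 13 to 24 (0.00793% of tiles). The 12 animals with testosterone implants parted from the 12 without in 0 of the 86 and in 0% of tiles. The count of opposite signs was 44 of 86 when C 1 was left out and 31 when T 16 was left out.

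In 53 of the 86 DMRs both C and T were nearer to WSD than to T+WSD, against 34.7% of tiles. In 11 both were nearer to T+WSD, in 10 C was nearer to T+WSD and T to WSD, and in 12 the reverse. T+WSD was the highest or the lowest of the 4 group means in 33 DMRs in which WSD was not at the other end, WSD in 3 in which T+WSD was not, and both stood at opposite ends in 47. The DMRs were chosen by a wide gap between T+WSD and WSD, which by itself favours means at the ends, and these counts are given as a description. The shares of tiles with T+WSD or WSD at an end were not computed. Of the 3 with WSD alone at an end, 1 rested on few animals. At chr11:121645641, WSD 20 was at 38.0%, WSD 19 at 13.9% and WSD 24 at 9.81%, and the highest of the other 3 WSD animals was WSD 23 at 3.02%.

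**Figure D5:**
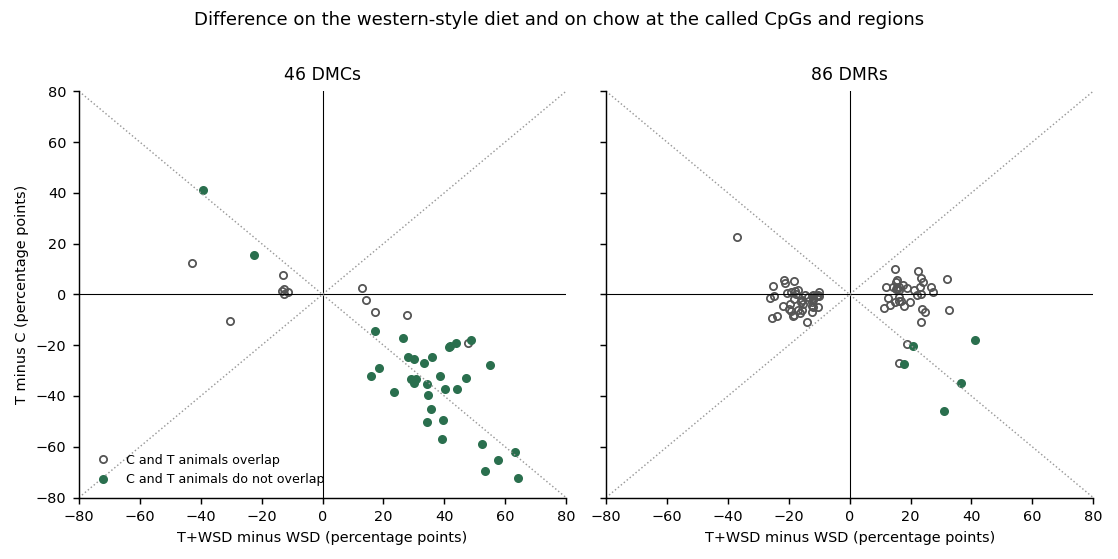
Difference between T+WSD and WSD (x axes) and between T and C (y axes), in percentage points, for 46 DMCs and 86 DMRs. Each point is a CpG or region, filled where no C animal overlaps a T animal, and dotted lines mark equal and opposite differences. Most DMCs follow the falling line, with 43 of 46 opposite in sign, whereas most DMRs lie near a T minus C of 0.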

How the data were processed

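The authors trimmed RRBS reads with Trim Galore 0.4.2 (quality check FastQC 0.11.5), aligned them to rheMac8 with Bismark 0.16.1, and kept CpGs covered at least 10 times in at least 4 animals of each group. The deposited values are the percent of methylated reads per CpG and animal, with no scaling. Groups came from the labels.

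All 24 animals entered 1 fit with 4 groups on arcsine-transformed rates in limma 3.58.1 (R 4.3.3). The contrast was T+WSD minus WSD. DMRs were built in Python 3.11.15 with a rewritten comb-p procedure: autocorrelation in 50 bp steps, joining within 300 bp, at least 2 CpGs. The code was tested on simulated data, where the Sidak correction used here gave more false DMRs than the stricter correction by CpGs. The rewritten procedure may call more DMRs than that of the study, which gave DMR counts only against controls. Single values had exact permutation tests over animals. Alternatives changed the scale, the animals in the fit, the filters and the thresholds.

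Named regions were the 8 largest gains and 8 largest losses among DMRs with at least 3 CpGs and no overlap between groups, with called tiles outside them and the 3 DMCs with the largest gain and loss. Members, tests and rules were chosen with earlier results of these data known. No genome or gene annotation of rheMac8 was used, so regions carry no gene names or sequences, and the promoter comparison, gene lists and marker lists were not run. The 62 CpGs listed on the Y chromosome were not interpreted.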

Additional observations from a re-analysis of the deposited data

Results flagged for a closer look

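In groups of 6 animals, 8 of 47 sets of values had an animal whose gap to the nearest other animal, relative to the range of the group, was past the 95% critical value of Dixon. For independent sets of normal values, 2.35 would be expected. Here the regions were chosen by the same values and the level classes share their animals, so the 8 cannot be read as an excess over that number. T+WSD 9 had a mean mitochondrial methylation of 27.9571% over 38 CpGs, and the next animal 1.63619% over 113. Over the same 38 CpGs the next animal was at 3.59%. In the class from 0% to 5%, T+WSD 8 was at 1.97397% (next 1.40581%) and WSD 20 at 1.90242% (next 1.48748%). WSD 22 was the low animal of the class from 50% to 80%, at 64.0389% (next 66.9264%). T+WSD 8 was at 84.308% in the gain at chr7:165309260 (next 69.394%), and T+WSD 12 at 41.8467% in the loss at chr9:109877799 (next 55.6633%). WSD 20 was at 61.0727% in the loss at chr10:18293777 (next 40.9127%), and WSD 21 at 77.742% in the loss at chr13:92842898 (next 67.753%).

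At 41 DMCs the difference between T+WSD and WSD and that between T and C were themselves different by the limma interaction term, which is the same contrast as animals 1 to 12 against 13 to 24 and cannot be told apart from it. At 31 of all 46 DMCs the C mean was nearer to T+WSD and the T mean nearer to WSD, which held for 17.4% of 1 kb tiles. A tile averages several CpGs and is another unit than a DMC, and the share over single CpGs was not computed.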

How the results depend on the processing

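No paired analysis was possible because the labels give the groups compared no replicate number in common (7 to 12 and 19 to 24). Of 12 other settings for the DMC count, 1 moved it by over 1.5 times: 74 at an adjusted p under 0.1. The DMR count was 30 with a minimum difference of 20 points and 32 with the Sidak correction by CpGs (added after seeing the data), of which 13 had T minus C opposite in sign. Called tiles numbered 1 with at least 5 CpGs per tile, a filter that removes 2 of the 3 called tiles, which hold 4 and 3 CpGs, and 1 in the fit of 12 animals. The cause of the other changes was not tested. Mean methylation had the other sign when each animal was averaged over every CpG it had, at 0.055 points (exact permutation p = 0.937), as did the class from 20% to 50% over CpGs with a value in all 24 animals, at 0.0345. The pseudo-F over the 10000 most variable CpGs was 1.15 with an exact permutation p of 0.0714. The 1 CpG of chr9:109877799 with a value in all 24 animals differed by 1.07 points.

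With each animal left out in turn, DMCs numbered 34 to 57, DMRs 50 to 94 (24 to 40 opposite in T minus C; 44 without C 1 and 31 without T 16 over the same 86 DMRs), and tiles 3 to 5 (5 without WSD 21 and 5 without T+WSD 7). Mean methylation differed by -0.612 to -0.244 points and the pseudo-F was 1.07 to 1.14. By class, in order of level, the ranges were -0.222 to -0.00218, -0.156 to 0.652, -0.720 to 0.419, -1.90 to -0.948, -0.997 to -0.597 and -0.204 to -0.0863. Of the 16 named regions, 5 were called in all 12 of these fits and 9 in 6 or fewer. Since reads per value are not in the table, no higher coverage minimum was tried. Promoter counts and their alternatives were not run.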
